A study of Mus musculus with 15 samples.

Results

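The 4 thrombospondin genes measured here (Thbs1, Thbs2, Thbs3 and Thbs4) and 6 genes of receptors that are not integrins (Cd36, Cd47, Sirpa, Lrp1, Sdc1 and Sdc4) were followed in bone-marrow hematopoietic stem cells of mice. They were picked by gene symbol and are 10 of the 20696 genes in the deposited table. Thrombospondins are secreted glycoproteins of the extracellular matrix, and thrombospondin-1 is stored in the granules of megakaryocytes and platelets. Thrombospondin-1 and thrombospondin-2 bind CD36 through their type 1 repeats and CD47 through their C-terminal domain, while thrombospondin-3 and thrombospondin-4 lack those repeats. CD47 binding by thrombospondin-1 restrains nitric oxide signalling, and CD47 also engages SIRPA on phagocytes, which holds back engulfment. LRP1 and the heparan sulfate chains of syndecans bind the N-terminal domain of thrombospondins and take part in their uptake.

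The series compared 3 groups of 5 bulk RNA libraries from sorted stem cells: aged mice of 18 months labelled Thbs1 knockout, aged controls of 18 months and young controls of 3 months. The sources used here give no strain, knockout allele, breeding controls or sorting gate. Whether each library is a different mouse is not labelled, and p-values then cover only library-to-library spread, some of it possibly technical. The libraries labelled knockout were 3 female and 2 male, the aged controls 2 female and 3 male, and the young controls 3 female and 2 male, according to the library names in the table. Male libraries carried running numbers 13 to 20 and female libraries 22 to 30, so sex and any processing in blocks of these numbers cannot be told apart. GEO's sample descriptions pair library names with titles differently from the table for 10 of 15 libraries. In the table's pairing the library names carry the letter A in every young control, B in every aged control and C in every library labelled knockout. The descriptions mix these letters within each group. Which pairing is right was not settled. Groups here follow the titles in the table, and values under the other pairing are given with the results below. Under that other pairing the libraries labelled knockout are all female, the young controls all male and the aged controls of both sexes. Its comparison of the knockout label with young controls therefore cannot be told apart from sex.

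Values are FPKM, fragments scaled to transcript length and sequencing depth, which can be compared between genes because they are given per length. The rounding of low values gave about 16650000 to 28630000 reads in genes per library. Stem cell markers fitted the label: Ly6a was at 84.9 to 306.1 FPKM, Procr at 43.29 to 133.2, Hlf at 25.3 to 44.76 and Meis1 at 22.66 to 44.74. The markers of other cells that were looked up were low or mixed. Kit, Pf4, Csf1r, S100a8, Cdh5, Cxcl12, Hba-a1, Cd79a and Cd3e were on the marker lists but were not looked up. They enter no count or sum of markers. Of 9 monocyte and macrophage markers, 8 stayed at or below 2.48 FPKM in every library, and Adgre1 did not exceed 0.32, while Cd68 was at 5.35 to 12.08. The B cell genes Ms4a1 and Ebf1 and the T cell genes Cd3d and Cd3g did not exceed 0.36, but other genes of those lists were high, with Cd79b at 29.22 to 63.83, Nkg7 at 21.87 to 117.1 and Klrb1c at 2.07 to 22.64 FPKM. Endothelial Tie1 was at 38.93 to 90.29 FPKM, and the erythroid genes Hbb-bs at 2.24 to 46.12, Hbb-bt at 3.26 to 27.6 and Klf1 at 3.64 to 37.88. Megakaryocyte markers were present, with summed levels of 127.3 to 173.6 FPKM in the libraries labelled knockout, 169.3 to 413.7 in aged controls and 202.8 to 232.2 in young controls. In bulk RNA, fewer cells of a type and less RNA per cell cannot be told apart. Replicates 2 and 5 of the libraries labelled knockout stood apart from the rest, with 93.61% and 96.11% of reads in protein-coding genes, against 97.32% or more in the others.

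Differences between groups were tested with limma on log2(FPKM + 1), and a gene was called when its adjusted p, Benjamini-Hochberg over 11345 genes with a mean of at least 1 FPKM, was under 0.05. Changes on this scale understate those of weakly expressed genes. Of the 10 genes, 5 passed this filter: Thbs1, Cd47, Sirpa, Sdc1 and Sdc4. The other 5, Thbs2, Thbs3, Thbs4, Cd36 and Lrp1, had means of 0.038 to 0.277 FPKM and were described without a test of the filtered table.

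Cd47 was by far the most abundant of the 10 genes, with a mean of 80.0 FPKM over the 15 libraries, above 96.46% of all genes in the table. Sirpa followed at 12.59 FPKM, Sdc4 at 10.33, Thbs1 at 5.85 and Sdc1 at 3.20. Cd47 exceeded Sirpa in 15 of 15 libraries, with no overlap of their ranges. Sirpa was above Sdc4 in 10 of 15 libraries, Sdc4 above Thbs1 in 10 and Thbs1 above Sdc1 in 7, so the middle of the order was not fixed from library to library. Below Sdc1 came Cd36 at 0.277 FPKM, Thbs2 at 0.245, Lrp1 at 0.184, Thbs3 at 0.119 and Thbs4 at 0.038. Sdc1 was above Cd36 in 15 of 15 libraries, but Cd36 was above Thbs2 in only 7 and Thbs2 above Lrp1 in 8.

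**Figure D1:**
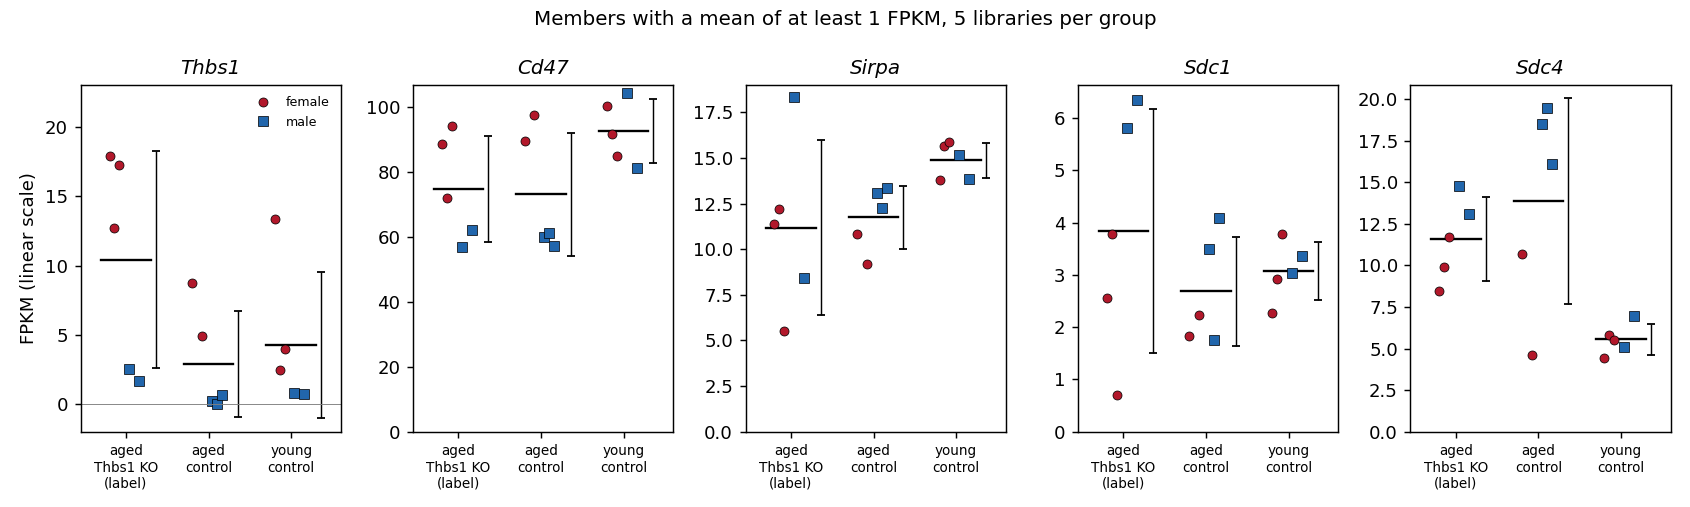
FPKM on a linear axis of the 5 genes with a mean of at least 1 FPKM, in libraries labelled aged Thbs1 knockout, aged controls and young controls. Circles are female and squares male libraries, lines are group means and bars the SD of 5 libraries. Within each group, female libraries sit above male ones for Thbs1, and Sdc4 of young controls stays at or below 6.93 FPKM.

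Among the ligands, Thbs1 was the only thrombospondin gene above 1 FPKM on average, and its level differed between female and male libraries within every group. Thbs1 (ENSMUSG00000040152) lies on GRCm38 chromosome 2 from 118111876 to 118127133 on the plus strand, with 6073 exonic bases. In the libraries labelled aged Thbs1 knockout it read 17.89, 12.69 and 17.25 FPKM in females and 2.53 and 1.69 in males. Aged controls had 8.75 and 4.90 FPKM in females and 0.20, 0.01 and 0.62 in males. Young controls had 13.38, 2.42 and 3.95 FPKM in females and 0.76 and 0.70 in males. Every female library was thus above every male library of its own group, and the gene named by the knockout label was not lower in the libraries that carry it. Behind the values stand 2 to 2563 reads per library.

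The libraries labelled knockout averaged 10.4 ± 7.84 FPKM of Thbs1 and the aged controls 2.90 ± 3.84 (SD, n = 5 each). In the limma fit this was a log2 change of 1.73 (SE 0.71, adjusted p = 0.302), which is not called, with both groups spread widely by sex. Within sex the groups did not overlap, at 12.69 to 17.89 FPKM in females labelled knockout against 4.90 to 8.75 in aged control females, and at 1.69 to 2.53 in males labelled knockout against 0.01 to 0.62 in aged control males. An exact two-sided permutation test that moved labels only within sex gave a log2 difference of 1.22 and p = 0.01, the smallest its 100 arrangements allow, and 0.03 adjusted over 3 such comparisons. The same exact permutation test over all 10 libraries, without regard to sex, gave p = 0.111. In limma with sex as a covariate the log2 change was 1.27 (adjusted p = 0.0377). Running numbers also separate the groups within each sex, so the label and any processing in blocks cannot be told apart. No source used here says which part of Thbs1 the allele lacks, and a value over the whole gene cannot show whether its reads come from the removed part. Its exons share 208 bases, 3.42% of their length, with Gm29233 on the other strand, and reads of that gene may be among them.

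Against young controls, with 4.24 ± 5.28 FPKM (SD, n = 5), Thbs1 in the libraries labelled knockout had a log2 change of 1.19 (SE 0.71, limma adjusted p = 0.324). The exact permutation test within sex gave p = 0.0333, adjusted to 0.05 over the 3 comparisons, which does not pass. In limma with sex as a covariate the log2 change was 1.19 and was called (adjusted p = 0.0374). Female values overlapped, since young control replicate 3 at 13.38 FPKM lay above the lowest female labelled knockout at 12.69. Aged and young controls overlapped in females and not in males (0.01 to 0.62 against 0.70 to 0.76 FPKM), and the exact permutation test within sex gave a log2 difference of -0.09 with p = 0.86. With groups set by the sample descriptions, the log2 change between the libraries labelled knockout and aged controls was 1.38 (adjusted p = 0.437). Under that pairing the change against young controls was 3.10 for the libraries labelled knockout, which is called (adjusted p = 0.00555), and 1.72 for aged controls (adjusted p = 0.808), against -0.54 under the titles. There the libraries labelled knockout are all female and the young controls all male, so the change of 3.10 cannot be told apart from a difference between the sexes. The changes of 1.38 and 1.72 also mix the label with sex, since the aged controls of that pairing are of both sexes. Neither pairing placed Thbs1 lower under the knockout label, with the sexes spread unevenly over the groups of the descriptions.

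The other thrombospondins were close to the limit of detection. Thbs2, made mainly by fibroblasts in many tissues, had 0.00, 0.15, 0.09, 0.10 and 0.26 FPKM in the libraries labelled knockout, 0.37, 0.51, 0.20, 0.15 and 0.07 in aged controls and 0.38, 0.25, 0.38, 0.12 and 0.64 in young controls, in order of replicate number. The group means were 0.12 ± 0.10, 0.26 ± 0.18 and 0.35 ± 0.19 FPKM (SD, n = 5 each), and the 3 groups overlapped. In the fit without the filter the log2 change of the libraries labelled knockout against young controls was -0.27 (adjusted p = 0.268). The single 0, in replicate 1 of the libraries labelled knockout, allows up to 0.0205 FPKM, the worth of 3 reads.

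Thbs3 ranged over 0.01 to 0.33 FPKM in the libraries labelled knockout, 0.07 to 0.28 in aged controls and 0.00 to 0.19 in young controls, from 199 reads in all. Its exons share 318 bases, 6.59% of their length, with Mtx1 on the other strand, a gene with a mean of 13.12 FPKM, so reads of Mtx1 may be among them. Thbs4, a thrombospondin known from tendon and muscle, had 39 reads over the 15 libraries and was listed at 0 in 7 of them, where 3 reads would be worth 0.0308 to 0.053 FPKM. Its mean was 0.038 FPKM in each of the 3 groups. At this depth no difference between groups was detectable for either gene.

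**Figure D2:**
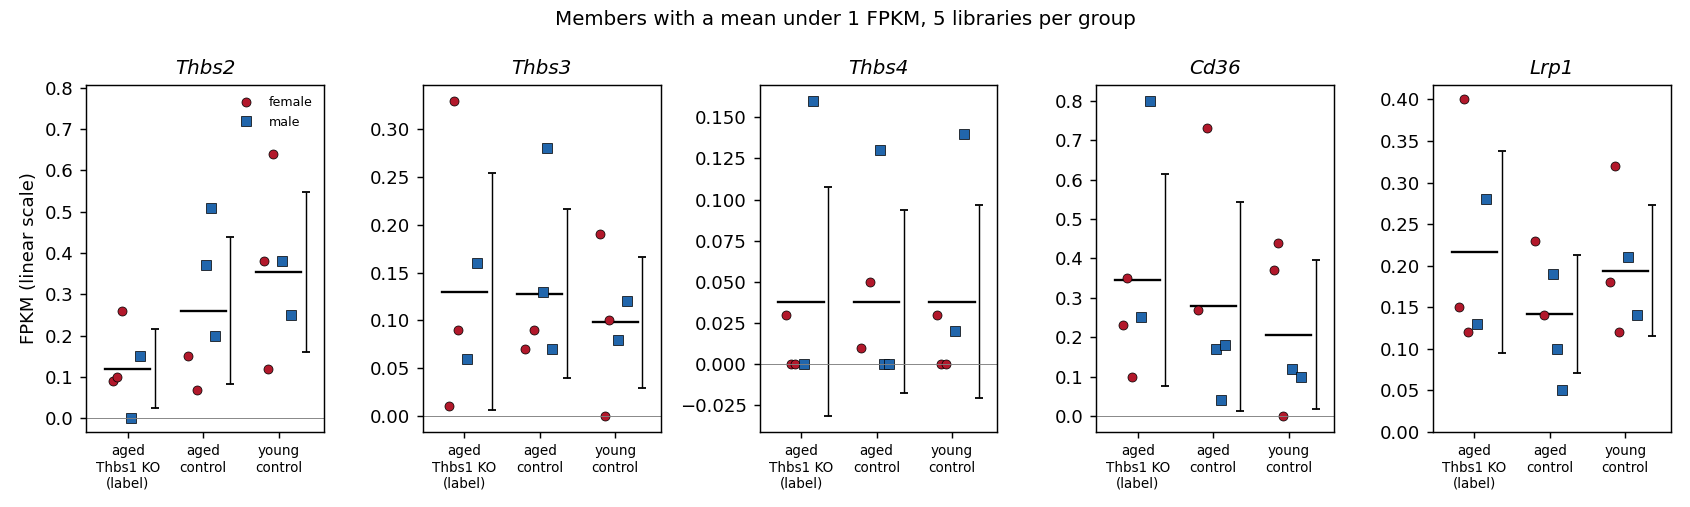
FPKM on a linear axis of the 5 genes with a mean under 1 FPKM, in libraries labelled aged Thbs1 knockout, aged controls and young controls, with circles for female and squares for male libraries. Lines are group means and bars the SD of 5 libraries. All 15 values of each gene lie at or below 0.80 FPKM and the groups overlap in every panel.

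CD47, the membrane receptor that binds thrombospondin-1 and SIRPA, and syndecan-4, a heparan sulfate proteoglycan of focal adhesions, were the receptors whose genes passed a test, in opposite directions. Their start regions are shown because these 2 genes carry the called receptor changes. Each is a RefSeq window of GRCm38.p6 from 250 bases before to 50 after an annotated start, printed 5′ to 3′ on the strand of the gene. Both windows lie inside the gene spans given below, and a second Cd47 window, not printed, begins at 49855411. Capitals mark the NRF1 element (GCGC, any base, then TGCGC) in Cd47 (chr16:49855404-49855703, plus strand) and the kB element GGGAATTCC in Sdc4 (chr2:164443139-164443438, minus strand).
Cd47: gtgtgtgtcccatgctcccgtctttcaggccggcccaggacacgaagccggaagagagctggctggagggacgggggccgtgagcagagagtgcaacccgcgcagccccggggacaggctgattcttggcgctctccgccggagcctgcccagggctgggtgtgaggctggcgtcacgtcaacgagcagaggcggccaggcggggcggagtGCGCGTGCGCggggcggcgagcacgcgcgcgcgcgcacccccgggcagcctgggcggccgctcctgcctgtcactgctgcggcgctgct
Sdc4: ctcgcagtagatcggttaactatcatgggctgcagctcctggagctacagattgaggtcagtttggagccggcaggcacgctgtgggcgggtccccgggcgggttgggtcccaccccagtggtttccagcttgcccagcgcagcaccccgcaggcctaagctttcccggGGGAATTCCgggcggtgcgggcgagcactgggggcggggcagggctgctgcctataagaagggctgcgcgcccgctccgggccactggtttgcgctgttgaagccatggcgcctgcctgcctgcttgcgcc
The motifs were searched on both strands together with the GC box GGGCGG and the TATA element TATAA. Among 32851 windows of the same length, 4.6% held the NRF1 element, 0.23% the kB element, 35.66% the GC box and 24.87% the TATA element. The Cd47 window held 3 GC boxes and no TATA element, and the Sdc4 window 4 GC boxes and 1 TATA element. Windows were found for 8 of the 10 genes, all but Thbs1 and Sirpa, and the only other one with an NRF1 element was Lrp1. A match describes the letters and does not show a factor at work.

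Cd47 (GRCm38 chromosome 16, 49800533 to 49915010, plus strand) had 56.67, 62.05, 88.45, 71.98 and 93.98 FPKM in the libraries labelled knockout. Aged controls had 59.89, 61.04, 57.10, 89.34 and 97.49 FPKM and young controls 104.16, 81.07, 100.28, 91.63 and 84.90. The low values of the 2 aged groups were their male libraries, at 56.67 to 62.05 and 57.10 to 61.04 FPKM, while young males were at 81.07 and 104.16. The group means were 74.6 ± 16.2, 73.0 ± 18.9 and 92.4 ± 9.82 FPKM (SD, n = 5 each). Neither of the 2 aged groups differed from young controls in a called way, with log2 changes of -0.33 (adjusted p = 0.278) for the libraries labelled knockout and -0.37 (adjusted p = 0.247) for aged controls. Between the libraries labelled knockout and aged controls the log2 change was 0.04 with an interval of -0.32 to 0.40.

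Sirpa codes for the counter-receptor of CD47 on myeloid cells, which recruits tyrosine phosphatases. It had 18.36, 8.42, 11.37, 12.18 and 5.53 FPKM in the libraries labelled knockout, 13.06, 12.27, 13.34, 10.85 and 9.21 in aged controls and 15.15, 13.85, 13.81, 15.63 and 15.88 in young controls. All aged controls lay below all young controls, and the libraries labelled knockout spread to both sides of them. The limma log2 changes were -0.32 (adjusted p = 0.381) for aged against young controls, -0.47 (adjusted p = 0.213) for the libraries labelled knockout against young controls and -0.15 (adjusted p = 0.819) against aged controls, and none was called. Without replicate 1 of the libraries labelled knockout the change against young controls was -0.66, and without replicate 5 it was -0.27. Sirpa lies on the same chromosome as Thbs1, 11.48 Mb away, and Sdc4 46.31 Mb away.

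CD36, a scavenger receptor that takes up fatty acids, and LRP1, a large endocytic receptor of the LDL receptor family, had low transcript levels. Lrp1 was detected in every library, at 15 to 194 reads. Cd36 had 0.10 to 0.80 FPKM in the libraries labelled knockout, 0.04 to 0.73 in aged controls and 0.00 to 0.44 in young controls. Lrp1 had 0.12 to 0.40 FPKM in the libraries labelled knockout, 0.05 to 0.23 in aged controls and 0.12 to 0.32 in young controls. The groups overlapped for both genes. With 336 reads for Cd36 and 1141 for Lrp1 over the 15 libraries, the fit without the filter gave log2 changes within -0.06 and 0.15 for the 3 group comparisons, none called.

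Sdc4 rose with age in the controls and was also higher in every library labelled knockout than in any young control. Sdc4 (GRCm38 chromosome 2, 164424247 to 164443887, minus strand) had 14.76, 13.10, 8.47, 9.89 and 11.71 FPKM in the libraries labelled knockout. Aged controls had 18.53, 19.45, 16.07, 10.69 and 4.59 FPKM, and young controls 5.08, 6.93, 4.43, 5.83 and 5.49. Of the aged controls, 4 lay above all young controls, and replicate 5, a female at 4.59, lay among them. The means were 11.6 ± 2.50, 13.9 ± 6.20 and 5.55 ± 0.93 FPKM (SD, n = 5 each), so aged controls averaged 2.50 times and the libraries labelled knockout 2.09 times the young level.

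The aged against young controls differed by a log2 change of 1.05 (SE 0.27, limma adjusted p = 0.0331). This was 1 of the 5 tested genes of the set, while 4.42% of all tested genes were called. Leaving out each library in turn kept the log2 change between 0.90 and 1.37 but left the call in place in 8 of 15 cases. It was lost without any of young controls 1, 3, 4 and 5 or aged controls 1, 2 and 3, with adjusted p up to 0.116, and sharpest without aged control 5, at an adjusted p of 0.000202. The libraries labelled knockout against young controls had a log2 change of 0.93 (SE 0.27, adjusted p = 0.0951), which is not called, although sex as a covariate brought the adjusted p to 0.0248 and leaving out aged control 5, which enters the shared estimate of spread, to 0.00983. The 2 comparisons share the young controls. Grouping by the sample descriptions turned the difference between aged and young controls to -0.52 (adjusted p = 0.969), and limma then called 0 of all tested genes, with 642 at an unadjusted p under 0.05. The libraries labelled knockout against young controls turned to -0.39 (adjusted p = 0.638) under that grouping. Its young controls are all male and include the males titled aged controls, at 16.07 to 19.45 FPKM of Sdc4. Its aged controls include the females titled young controls, at 4.43 to 5.83 FPKM, and its libraries labelled knockout are all female.

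**Figure D3:**
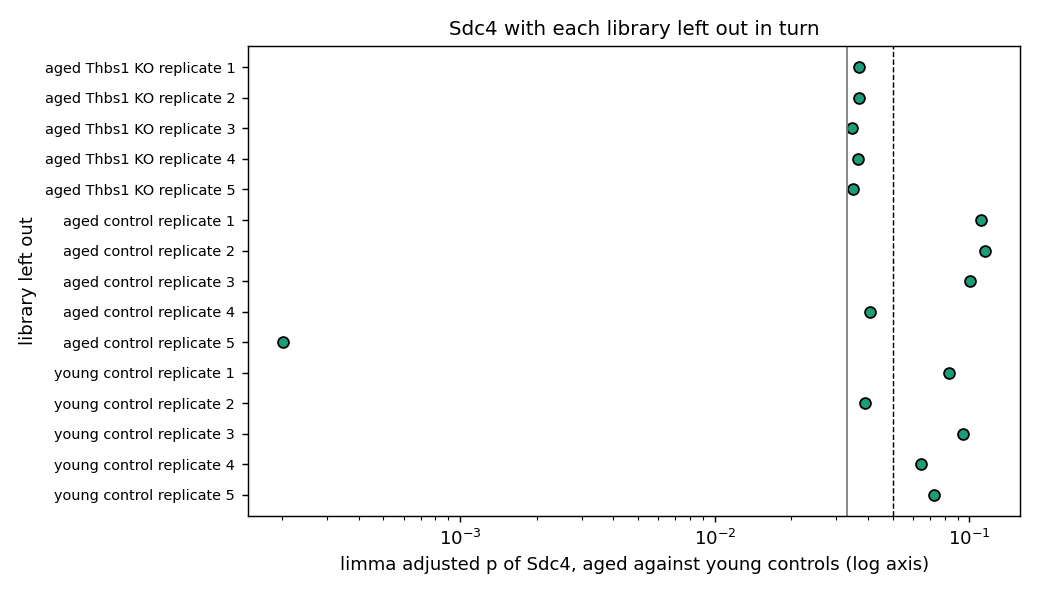
Adjusted p of Sdc4 from limma, aged against young controls, on a log axis, with each of the 15 libraries left out in turn (rows, groups in blocks). The solid line is the value with all libraries, 0.0331, and the dashed line the threshold of 0.05. Points range over 0.000202 to 0.116, and 7 lie beyond the threshold.

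Syndecan-1, the other heparan sulfate proteoglycan tested, is known as a plasma cell and epithelial marker. Sdc1 had 5.81, 6.35, 2.55, 3.79 and 0.70 FPKM in the libraries labelled knockout, 3.49, 1.75, 4.09, 1.84 and 2.24 in aged controls and 3.03, 3.36, 2.27, 2.92 and 3.79 in young controls. The 2 males labelled knockout were the highest and female replicate 5 of the same group the lowest of the 15 libraries. Its log2 changes were 0.26 (adjusted p = 0.766) for the libraries labelled knockout against aged controls, 0.08 (adjusted p = 0.882) against young controls and -0.18 (adjusted p = 0.752) for aged against young controls, with no call. Leaving out single libraries moved the first between 0.07 (without replicate 2 labelled knockout) and 0.60 (without replicate 5), and the second between -0.11 and 0.42 with the same omissions.

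In the comparison of the libraries labelled knockout with aged controls, then, 0 of the 5 tested genes were called, with limma and with voom on the recovered reads alike, and 1, Thbs1, had an unadjusted p under 0.05. Of all tested genes 1.55% were called in that comparison. The median log2 change of the 5 was 0.04, beside -0.03 for all tested genes. Against young controls 0 of 5 were called by either tool in the libraries labelled knockout, with 2 at an unadjusted p under 0.05, against 1.63% of all genes. Between aged and young controls 1 of 5 was called, and voom called 0.

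**Figure D4:**
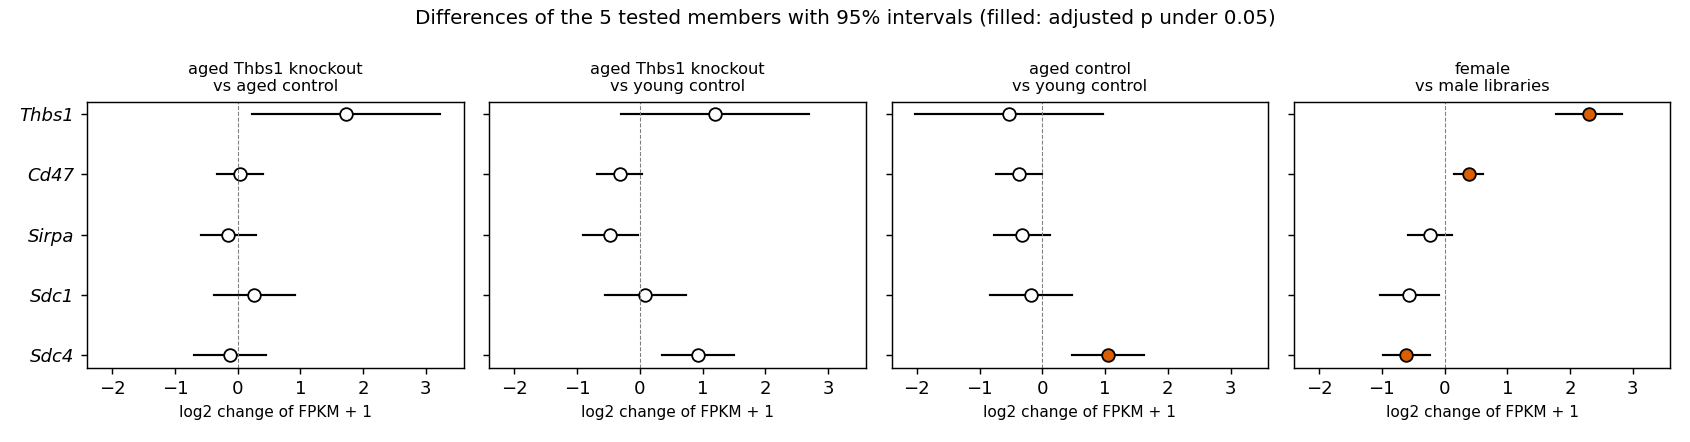
Log2 change of FPKM + 1 of the 5 tested genes (points) with 95% intervals (lines) from limma, for the 3 group comparisons and for female against male libraries. Filled points have an adjusted p under 0.05: Sdc4 in aged against young controls, and Thbs1, Cd47 and Sdc4 in female against male libraries.

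Female and male libraries were compared with group kept in the fit. Thbs1 and Cd47 were higher and Sdc4 lower in female libraries, 3 of the 5 tested genes, while 12.9% of all tested genes were called. Thbs1 averaged 10.2 ± 6.04 FPKM in 8 female and 0.93 ± 0.88 in 7 male libraries (SD), with a log2 change of 2.30 (SE 0.25, limma adjusted p = 0.000147). Only 1 female library, at 2.42 FPKM, fell below the highest male one, at 2.53. The call held with each of the 15 libraries left out, at log2 changes of 2.15 to 2.45.

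Cd47 averaged 89.8 ± 8.73 FPKM in female and 68.9 ± 17.6 in male libraries, a log2 change of 0.38 (SE 0.11, adjusted p = 0.0345). Sdc4 averaged 7.64 ± 2.91 FPKM in female and 13.4 ± 5.52 in male libraries, a log2 change of -0.61 (SE 0.18, adjusted p = 0.035). Each of these 2 calls held in 5 of 15 omissions of a library and was lost without any of the 5 aged controls, young controls 2 and 3 or replicates 1, 2 and 3 labelled knockout, with adjusted p up to 0.102 for Cd47 and 0.0717 for Sdc4. Sdc1 had a log2 change of -0.56 (adjusted p = 0.104) and Sirpa of -0.23 (adjusted p = 0.365), not called. Summed markers of other cells overlapped between the sexes, for example 127.3 to 413.7 FPKM in female and 163.1 to 342.7 in male libraries for megakaryocytes and 7.63 to 14.59 in female and 6.57 to 13.2 in male libraries for monocytes and macrophages. Their part in these differences was not tested.

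Within males, Sdc4 was higher and Cd47 lower in aged than in young controls. In males Sdc4 was at 16.07 to 19.45 FPKM in 3 aged controls and 5.08 and 6.93 in 2 young controls, a log2 change of 1.45 (SE 0.26, limma adjusted p = 0.0050). Cd47 in males was at 57.10 to 61.04 FPKM in aged and 81.07 and 104.16 in young controls, a log2 change of -0.62 (SE 0.16, adjusted p = 0.0315). These were 2 of 5 tested genes, with 7.75% of all tested genes called in males, and rest on 3 aged and 2 young libraries. Running numbers separate these groups too, so age and any processing in blocks cannot be told apart. In females Sdc4 had a log2 change of 0.38 and Cd47 of 0.02 between aged and young controls, and 0 of 5 were called by limma, 0 with an unadjusted p under 0.05, against 0.961% of all tested genes called. The limma interaction, the difference between the sexes itself, was -1.07 for Sdc4 (unadjusted p = 0.0107, adjusted p = 0.498). For Cd47 it was 0.64 (unadjusted p = 0.0131, adjusted p = 0.508). A different change in females and males was thus not called, with 2 of 5 genes at an unadjusted p under 0.05. Of all tested genes 0 were called in this interaction. Males labelled knockout had 13.10 and 14.76 FPKM of Sdc4, a log2 change of 1.10 against young males (adjusted p = 0.0482), where 3.44% of all genes were called, and Cd47 had -0.62 (adjusted p = 0.0598). Between the libraries labelled knockout and aged controls 0 of 5 genes were called in either sex by limma, with 1 in females and 2 in males at an unadjusted p under 0.05, against 0.264% of all tested genes called in females and 1.42% in males. Females labelled knockout against young females also gave 0 of 5, with 3 at an unadjusted p under 0.05, against 0.582%.

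Integrins are the other class of thrombospondin receptors. Of 6 tested integrin genes, 2 fell in the libraries labelled knockout against aged controls, where 1.55% of all tested genes were called. In aged against young controls 3 rose, where 4.42% were called. Itgb1 belongs to this list but was not looked up, so the counts and medians of integrin genes leave it out. This list and those below were chosen with earlier results of these data known, so their shares are no test against all genes. Itga2b, the platelet integrin alpha chain, averaged 39.1 ± 13.3 FPKM in the libraries labelled knockout, 138.3 ± 46.5 in aged controls and 64.4 ± 4.26 in young controls (SD, n = 5 each). Its log2 change was -1.80 against aged controls (adjusted p = 0.00101) and 1.01 for aged against young controls (adjusted p = 0.0381). Itgb3, its beta partner, averaged 36.8 ± 17.2, 71.1 ± 4.70 and 18.9 ± 1.66 FPKM, with log2 changes of -1.04 (adjusted p = 0.0139) and 1.86 (adjusted p = 2.6e-05). Itga3, a laminin-binding integrin chain, rose with age by 1.03 (adjusted p = 0.0014). The medians of the 6 were -0.68 and 0.73 in these comparisons, and 0 of 6 were called between the libraries labelled knockout and young controls, with 3 at an unadjusted p under 0.05 and 0 called by voom. Itga2b is also a megakaryocyte marker, and the summed megakaryocyte markers were lower in the libraries labelled knockout than in aged controls, at 127.3 to 173.6 against 169.3 to 413.7 FPKM. That sum contains Itga2b, and the other 8 genes summed to 87.62 to 156 FPKM in the libraries labelled knockout, 105.9 to 221.5 in aged controls and 139.5 to 174.8 in young controls. Of 8 tested megakaryocyte markers, which leave out Pf4, only Itga2b was called lower in the libraries labelled knockout than in aged controls. Lower sums were not particular to megakaryocyte markers. Stem cell markers, without Kit, summed to 666.7 to 809.8 FPKM in the libraries labelled knockout and 880.9 to 1019 in aged controls. T and NK cell markers, without Cd3e, summed to 29.13 to 61.12 against 67.22 to 134.3 FPKM. The sums of all other cell types, megakaryocytes among them, overlapped between these 2 groups. The part of these markers in the changes was not tested.

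Of 7 tested matricellular genes and relatives with thrombospondin repeats, 3 rose and 1 fell with age, against 4.42% of all tested genes called. As this list was chosen with earlier results known, an excess over that share may stem from the choice. Comp was not looked up and is left out of the counts and median of this list. Sbspon, which codes for a matrix protein with somatomedin B and thrombospondin repeats, averaged 5.42 ± 2.47 FPKM in the libraries labelled knockout, 19.3 ± 8.55 in aged controls and 0.67 ± 0.28 in young controls. It rose with age by 3.46 on the log2 scale (adjusted p = 2e-06), was lower in the libraries labelled knockout than in aged controls by -1.58 (adjusted p = 0.011) and stayed above young controls by 1.88 (adjusted p = 0.0042). Matn4, a matrilin of the matrix, averaged 10.1 ± 6.97, 21.3 ± 12.7 and 1.26 ± 0.28 FPKM in the same order, with log2 changes of 3.04 for aged against young controls (adjusted p = 0.000204) and 2.09 for the libraries labelled knockout against young controls (adjusted p = 0.0154). Ccn1, a matricellular ligand of integrins, rose with age by 1.34 (adjusted p = 0.0132), and Thsd1, a membrane protein with a thrombospondin repeat, fell by 0.69 (adjusted p = 0.0489). The medians were 0.29 for the 7 genes and -0.02 for all tested genes in the comparison of aged with young controls.

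In the LRP1 and LDL receptor family, 1 of 8 tested genes was called between the libraries labelled knockout and aged controls (1.55% of all tested genes) and between aged and young controls (4.42%), and 0 of 8 between the libraries labelled knockout and young controls, with 1 at an unadjusted p under 0.05 and 0 called by voom. Vldlr, the very low density lipoprotein receptor, averaged 1.05 ± 0.40 FPKM in the libraries labelled knockout, 4.21 ± 1.77 in aged controls and 1.38 ± 0.21 in young controls. Its log2 change was -1.30 against aged controls (adjusted p = 0.00187) and 1.06 for aged against young controls (adjusted p = 0.0043). Among the 7 partners of CD47 and SIRPA that were looked up, only Ptk2b, a kinase related to focal adhesion kinase, was called with age, at 0.49 (adjusted p = 0.032). Ptpn6 was not looked up in that list, nor Calr in the list of the LRP1 and LDL receptor family. In several other lists no tested gene was called in any of the 3 group comparisons by limma or voom. These held 8 tested partners of CD36 and scavenger receptors and 10 other tested syndecan, glypican and heparan sulfate genes. They also held 11 tested genes of TGF-beta activation and signalling and 3 tested enzymes that modify thrombospondin repeats. Of these, in that list order, 1, 3, 3 and 0 had an unadjusted p under 0.05 between the libraries labelled knockout and aged controls. Of the nitric oxide and cGMP genes 1, Gucy1a1, was tested, and it was not called between groups. Fyn, Sdc2, Tgfb1, Pofut2 and Nos3 belong to these lists but were not looked up, so the counts leave them out.

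With groups set by the sample descriptions, none of these calls of integrins, matricellular genes, Vldlr and Ptk2b between groups remained. That grouping makes the libraries labelled knockout all female and the young controls all male. Its young controls include libraries titled aged controls, and its aged controls include libraries titled young controls. In aged against young controls the changes of Itga2b, Itga3, Itgb3, Ptk2b, Vldlr, Ccn1, Matn4 and Sbspon turned negative, for example -0.93 for Itga2b (adjusted p = 0.876) and -1.65 for Sbspon (adjusted p = 0.876), and that of Thsd1 was 0.02 (adjusted p = 0.999). In the libraries labelled knockout against aged controls Itgb3 turned to 1.06 (adjusted p = 0.667), Vldlr to 0.59 (adjusted p = 0.853) and Sbspon to 1.58 (adjusted p = 0.802), and Itga2b was at -0.04 (adjusted p = 0.998). Against young controls the libraries labelled knockout had -0.07 for Sbspon (adjusted p = 0.979) and -0.38 for Matn4 (adjusted p = 0.854).

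Some of these partners were called between the sexes, most of them higher in female libraries. CD47 and SIRPA partners rose in 3 of 7 cases, Skap2 by 0.47 (adjusted p = 0.0142), Ubqln1 by 0.60 (adjusted p = 0.0215) and Bnip3 by 0.37 (adjusted p = 0.0287). Gucy1a1, a subunit of soluble guanylate cyclase, averaged 6.11 ± 1.56 FPKM in female and 3.55 ± 2.07 in male libraries, a log2 change of 0.66 (adjusted p = 0.0215). Itga6 (0.75, adjusted p = 0.0182), the engulfment adaptor Gulp1 (0.67, adjusted p = 0.0255), the kinase Lyn (0.64, adjusted p = 0.0078), the syndecan-binding protein Sdcbp (0.35, adjusted p = 0.0413) and Smad2 (0.32, adjusted p = 0.0448) were also higher. The tetraspanin Cd81 (-0.31, adjusted p = 0.0474) and Ccn1 (-0.70, adjusted p = 0.0289) were lower. By list, 1 of 6 integrin genes, 1 of 8 genes of the LRP1 and LDL receptor family, 1 of 10 heparan sulfate genes and 1 of 11 TGF-beta genes were higher. Of 8 CD36 partners 1 was higher and 1 lower, 1 of 7 matricellular genes was lower, and 0 of 3 repeat-modifying enzymes were called. These counts leave out the genes that were not looked up. They stand against 12.9% of all tested genes called between the sexes, and lists with a single call of 6 or more genes lie near that share.

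The genes whose levels followed each receptor or ligand most closely were found by Pearson's r of log2(FPKM + 1) over the 15 libraries, as a description, since all pairs share libraries, depth and sex. For Thbs1 these were Myl10 (r = 0.925), Xist (0.898), Ern1 (0.879), Net1 (0.876) and Eif4b (0.875), where Xist is the RNA of X inactivation. With the means of group and sex removed, Xist was at 0.779 and Eif4b at 0.127. For Cd47 they were Ssr1 (0.962) and Dipk1a (0.955), for Sirpa Fes (0.939) and Hip1r (0.935), for Sdc1 Dot1l (0.936) and Prrc2b (0.916) and for Sdc4 Ctsf (0.970) and Fetub (0.951). Within the set, Cd47 and Sdc4 ran against each other (r = -0.854, and -0.356 with the means of group and sex removed), and Sirpa and Sdc1 ran together (0.540, and 0.582).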

How the data were processed

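Per the labels' protocols, stem cells were sorted from bone marrow into TRIzol-LS, and SMART-Seq v4 libraries were made from 2 ng of total RNA. The deposited values are FPKM, rounded by the authors to 2 decimals, in 1 table of 20696 genes by 15 libraries. Per the submitters' processing notes, FastQC 0.11.5, STAR and edgeR were used with GRCm38 (mm10). Roles, settings and strand: not given in the sources used here. Every gene identifier was found in GENCODE M21, which gave symbols, positions and lengths.

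The 10 genes and all gene lists were chosen with earlier results of these data known. By an error in reading the lists, the first gene of each was not looked up. List counts, medians and marker sums leave these genes out. In the lists of partners and relatives they were Itgb1, Ptpn6, Nos3, Calr, Fyn, Sdc2, Tgfb1, Pofut2 and Comp. In the marker lists they were Kit, Pf4, Csf1r, S100a8, Cdh5, Cxcl12, Hba-a1, Cd79a and Cd3e. Values that are whole multiples of 1 read (within 0.1 reads, 100% of values in genes of at most 250 bases and at least 97.82% in genes up to 500) gave the depth. A floor is 3 reads and covers counting error only, while limma's 95% intervals rest on the spread between libraries. Groups follow the titles in the table, and sex the library names. Group comparisons used limma 3.58.1 (R 4.3.3) on log2(FPKM + 1), with an intensity-dependent prior variance, all 15 libraries, no covariate and two-sided tests. Female and male libraries were compared with group as a covariate, and within-sex values and differences between sexes came from means of group by sex in 1 fit. Thbs1 was also tested by exact permutation within sex. The 11345 genes with a mean of at least 1 FPKM were tested and 9351 were not. Adjusted p-values come from limma over these genes unless another source is named. Fits were tested on simulated data. From each list, called genes among the 4 with the smallest p were named, with likeness over all tested genes (the 5 closest for Thbs1, the 2 closest for each other tested gene, leaving out genes with clone names and pseudogenes). Python 3.11.15 served the other steps. Alternatives covered the pseudocount, the filter, scaling, weights, voom on recovered reads, covariates, the replicate block, the pairing in the descriptions and leaving out libraries. Some single genes are not reported here.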

Additional observations from a re-analysis of the deposited data

Results flagged for a closer look

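In groups of 5 libraries, a value was set apart when its gap to the nearest other value, as a share of the range of the group, passed Dixon's critical value of 0.71. Chance alone does so in about 1 of 20 groups, and 4 of the 30 groups examined did. Thbs1 in young control replicate 3, a female library, was at 13.38 FPKM, against 0.70 to 3.95 in the other young controls. Thbs3 in aged control replicate 2 was at 0.28 FPKM, against 0.07 to 0.13 in the other aged controls. Thbs4 was at 0.16 FPKM in replicate 2 of the libraries labelled knockout and at 0.14 in young control replicate 2, in each case above 0.00 to 0.03 in the rest of the group. The last 3 values rest on few reads, with at most 11 for Thbs4 and 43 for Thbs3 in any library.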

How the results depend on the processing

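Thbs1 was called higher in female than male libraries under all 5 other settings and all 15 omissions of a library. Sdc4 in aged against young controls fell under the call without the filter (adjusted p = 0.0675), with voom (0.0645) and with values rescaled to TPM (0.0691), and was reversed at -0.52 with groups from the sample descriptions. The sex calls of Cd47 and Sdc4 were lost without the filter (adjusted p = 0.0586 and 0.0699) and with sex alone (0.0541 and 0.104), and that of Sdc4 with TPM (0.163). The exact permutation test of Thbs1 over all 10 libraries, with log2 differences of 1.73 against aged controls and 1.19 against young controls for the libraries labelled knockout, did not pass. Array weights, from 0.149 to 4.155 per library, called Thbs1 (3.28), Cd47 (0.36) and Sdc4 (-0.76) between the libraries labelled knockout and aged controls. They also called Thbs1 (-1.67), Cd47 (-0.55) and Sdc4 (1.46) between aged and young controls, and Sdc4 (0.70) between the libraries labelled knockout and young controls.

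Calls over the table depended on single libraries. For the libraries labelled knockout against aged controls, 176 genes were called, 95 to 229 with a library left out, 3688 with array weights and 0 under the descriptions (limma, 731 at an unadjusted p under 0.05). Between aged and young controls 501 were called, 311 to 943 with a library left out, 1030 without replicates 2 and 5 of the libraries labelled knockout, 5397 with array weights, 301 with rescaled values and 0 under the descriptions (642 at an unadjusted p under 0.05). For the libraries labelled knockout against young controls 185 were called, 98 to 676 with a library left out, 429 with sex as a covariate, 475 with array weights and 15 under the descriptions. Between female and male libraries 1468 were called, 529 to 2872 with a library left out, 860 without the filter and 908 with sex alone. Differences between sexes gave 0 calls with limma, with 377 (knockout label) and 998 (age) genes at an unadjusted p under 0.05, 0 to 12 (knockout label) and 0 to 8 (age) with a library left out, 31 without the filter for the knockout label, and 1 each with quantile normalization. The rescaling to TPM, the quantile normalization for the sexes and the other settings for differences between sexes were chosen after seeing the data. The cause was not tested.

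Replicate numbers did not pair the libraries: of 15 same-numbered pairs 6 correlated over 0.1 (median -0.0367), and 6 of 15 libraries matched their own number best. With the replicate block 152, 499 and 158 genes were called between the libraries labelled knockout and aged controls, between aged and young controls, and between the libraries labelled knockout and young controls. Depth limits Thbs3 and Thbs4 most.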
